A study of Mus musculus with 4 samples.

Results

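Dnase1l3, a secreted DNase that digests extracellular DNA, was followed as 1 gene among the 11820 genes counted in single colonic monocytes and macrophages. The gene was chosen by its UMI counts in these same cells, which were known from an earlier look at the data, so its own values by diet and cell class are given as a description, without a test. Cells came from the colon of male C57/Bl6N mice that were 6 to 7 weeks old when the diets began and that received either normal chow (mice 9 and 11) or a coconut-based high-fat diet (HFD) with 60% fat (mice 1 and 3) for 1 week. Live CD45+Lin-CD11b+CD24- cells that carried Ly6c or Cd64 were sorted from each mouse and loaded into its own well, so that mouse and well cannot be told apart. Of the 5420 cells, 2906 were from chow and 2514 from HFD mice, and n was 2 mice per diet. Counts are unique molecular identifiers (UMIs), which mark single captured RNA molecules. Median depth was 3926 and 3747 UMIs per cell in chow mice 9 and 11, and 3804 and 3266 in HFD mice 1 and 3. There were 23 cell barcodes that occurred in more than 1 mouse, in 46 cells, and 38 cells were marked as doublets.

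DNASE1L3 is released by macrophages and dendritic cells and can cut DNA that is packed in chromatin or enclosed in particles from dying cells. Its loss leads to antibodies against DNA and to lupus-like disease. In the colon, blood monocytes enter as Ly6C+ cells without MHC II, gain MHC II, lose Ly6C and mature into macrophages that express the complement component C1q. The gene (ENSMUSG00000025279) is protein-coding and lies on the minus strand of chromosome 14, from 7964533 to 7994573 in GRCm38.

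Over all sorted cells, Dnase1l3 was among the well-detected genes, with 43110 UMIs in 3294 cells. At least 1 UMI was found in 61.0% (95% exact binomial interval 57.7 to 64.2) and 68.4% (66.3 to 70.4) of the cells of chow mice 9 and 11, and in 46.1% (42.9 to 49.3) and 60.0% (57.5 to 62.5) of those of HFD mice 1 and 3. Both HFD mice were thus below both chow mice in the share of positive cells, by 11.6 percentage points on average. When every cell was thinned to 1500 UMIs, which left out 60 and 200 shallower cells on chow and 124 and 201 on HFD, the shares became 52.8% and 56.9% on chow and 40.0% and 53.2% on HFD, and the diets overlapped. Summed over cells, the level was 2157 and 2129 CPM (UMIs of the gene divided by all UMIs of the sum and scaled to a common total) on chow against 1428 and 2232 CPM on HFD, and the diets overlapped here as well. In these sums both HFD mice were above both chow mice for 50.4% and below them for 21.4% of the 4948 genes tested. All intervals cover counting error only. Shares of genes with both HFD mice above or below both chow mice were counted at full depth only. No such share stands beside values after thinning.

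The mixture of cells behind these sums differed between diets. Cells were therefore divided by level. Cells with 5000 CPM or more of C1qa, C1qb and C1qc together were called C1q-high. The others were divided by MHC II genes (H2-Aa, H2-Ab1, H2-Eb1 and Cd74, 30000 CPM or more) and by Ly6c2 (400 CPM or more). These classes are ranges and not cell types, and between 0.8 of the cut and the cut divided by 0.8 lay 189 of 5420 cells for C1q, and 135 and 126 of the 1907 C1q-low cells for MHC II and Ly6c2. C1q-high cells made up 82.4% and 90.5% of the cells of chow mice 9 and 11, against 41.3% and 36.0% in HFD mice 1 and 3. An average share of the UMIs was taken for each class, with Ly6C+ MHC II-high cells left out. If every mouse had held the classes in these shares, the Dnase1l3 level would have been 1743 and 1662 CPM in the chow mice. In the HFD mice it would have been 1938 and 2934 CPM.

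Dnase1l3 was low in the cells at the start of the sequence. Ly6C+ MHC II-low cells, the class of recently arrived monocytes, held 45.2 and 81.0 CPM in chow mice 9 and 11, and 108 and 246 CPM in HFD mice 1 and 3. These levels rest on 8 and 18 UMIs in 57 and 68 chow cells, and on 108 and 265 UMIs in 261 and 373 HFD cells. The HFD mice lay above the chow mice in CPM, as did 32.0% of the genes tested in this class, while the shares of positive cells overlapped (8.77% and 19.1% against 15.3% and 30.6%). Only 6 of the 634 HFD cells and 0 of the 125 chow cells of this class held 10 or more UMIs. Genes of B and plasma cells summed to 47937 and 79739 CPM in this class on chow and to 129 and 97.4 CPM on HFD. Without the listed B and plasma cell genes in the totals, Dnase1l3 stood at 47.4 and 88.0 CPM on chow and at 108 and 246 CPM on HFD. Over all classes, 5 cells held 95.5% and 80.6% of the Igha UMIs of chow mice 9 and 11. Monocyte markers in this class summed to 17228 and 20560 CPM on chow against 31131 and 28646 CPM on HFD. Resident macrophage markers summed to 6774 and 11029 against 4038 and 4542 CPM. The part of these marker differences in the Dnase1l3 values was not tested.

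**Figure D1:**
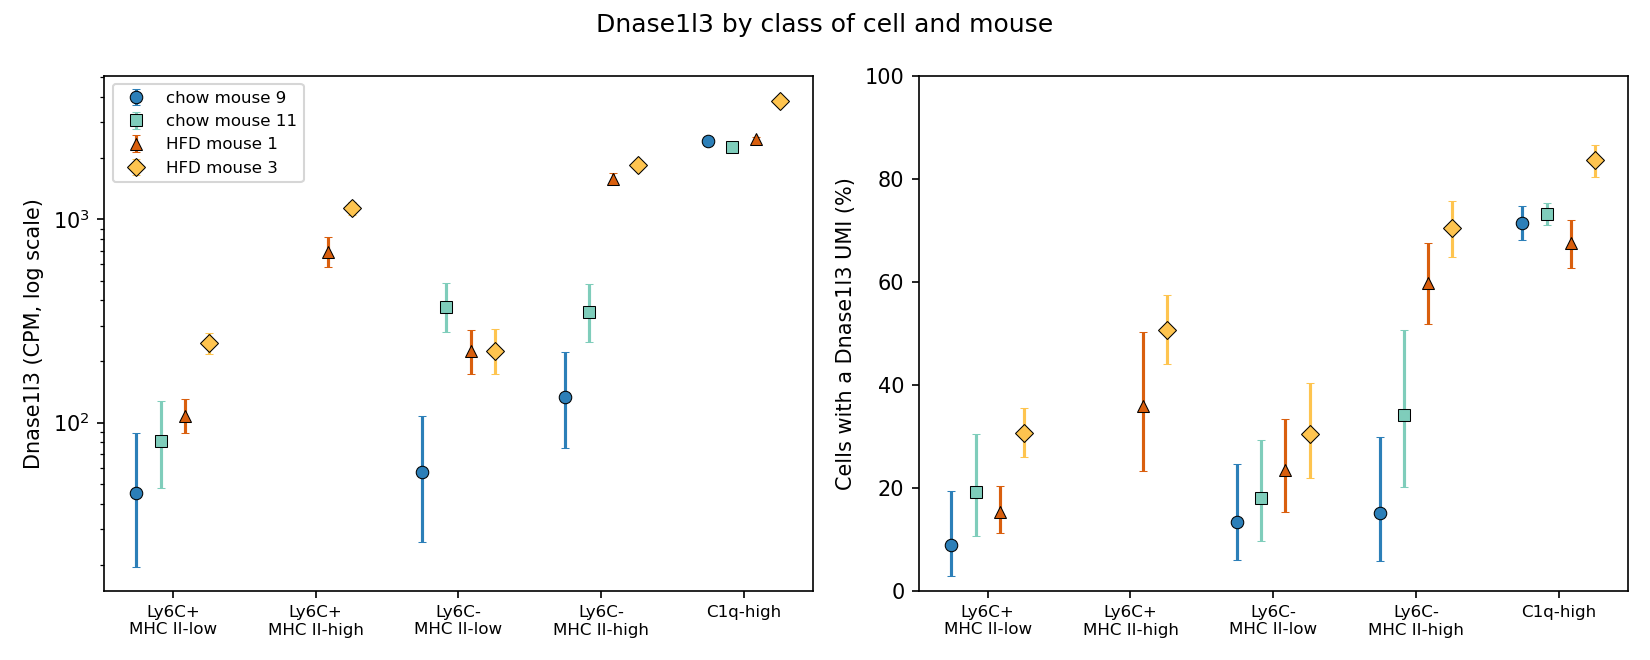
Dnase1l3 in each class and mouse, as CPM of summed UMIs on a log scale (left) and as the share of cells with at least 1 UMI (right), with 95% exact Poisson and binomial intervals. The chow sums of Ly6C+ MHC II-high cells, with 2 and 14 cells, are not drawn. The widest distance between the diets is in Ly6C- MHC II-high cells.

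Some UMIs can come from RNA released by broken cells, and no class that lacks Dnase1l3 by nature was left in the sorted matrix to measure this. Relative to the C1q-high cells of the same mouse, Ly6C+ MHC II-low cells held 1.85% and 3.58% of the Dnase1l3 level on chow, and 4.37% and 6.44% on HFD. Apoe, an abundant lipid transport gene of macrophages, stood at 8.80% to 19.8% of its C1q-high level in the same cells. Other macrophage genes lay on either side of Dnase1l3, with Cd81 at 9.92% and 11.95% on chow against 3.18% and 4.19% on HFD, and H2-M2 at 2.58% and 4.22% against 1.19% and 3.03%. Apol7c stood at 0% and 6.63% on chow against 2.80% and 2.86% on HFD. The share that released RNA holds in these low levels was not tested.

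MHC II-high cells with low C1q carried the largest difference between diets. In Ly6C- MHC II-high cells, Dnase1l3 was 135 and 352 CPM in chow mice 9 and 11, and 1582 and 1847 CPM in HFD mice 1 and 3. No HFD mouse overlapped with a chow mouse, and the mean was 7.05-fold higher on HFD (1715 ± 187 against 243 ± 154 CPM, SD, n = 2). This is a log2 ratio of 2.82, which was 1.75 when C1q-high began at 10000 CPM and 3.67 without chow mouse 11. Both HFD mice were above both chow mice for 31.0% of the 4825 genes tested in this class, and Dnase1l3 ranked 27 of them by fold. The share of positive cells was 15.0% and 34.1% of 40 and 41 chow cells, and 59.7% and 70.5% of 159 and 288 HFD cells. After thinning it was 9.38% and 17.2% on chow and 54.1% and 62.0% on HFD, and the diets remained apart.

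The cells of this class were not alike otherwise. Resident macrophage markers summed to 20987 and 20063 CPM on chow and to 5884 and 5067 CPM on HFD, and monocyte markers to 2897 and 3978 against 7169 and 7923 CPM. Median C1q was 1140 and 2132 CPM in the chow mice and 575 and 625 CPM in the HFD mice. Thus the HFD cells held more Dnase1l3 at a lower C1q level. The part of these marker differences in the Dnase1l3 difference was not tested.

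Ly6C+ cells that had gained MHC II followed the same order as far as they could be counted. HFD mice 1 and 3 held 53 and 225 such cells, with 691 and 1130 CPM of Dnase1l3 and 35.8% and 50.7% positive cells. Chow mouse 9 held 2 of them with no UMI, and chow mouse 11 held 14 with 10 UMIs (235 CPM), so the diets were not compared in this class. In both HFD mice, Dnase1l3 thus stood above its level in the Ly6C+ MHC II-low cells while Ly6c2 was still expressed.

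In the remaining C1q-low class the diets overlapped in CPM but not in the share of positive cells. Ly6C- MHC II-low cells held 56.9 and 371 CPM on chow against 225 and 225 CPM on HFD. The value of chow mouse 11 lay above both HFD mice, while both HFD mice were above both chow mice for 24.7% of the 4138 genes tested there. In chow mouse 11, 3 of 67 cells held 10 or more UMIs, and thinning left out 26 of its cells. After thinning, the levels were 83.3 and 81.3 CPM in 48 and 41 cells of chow mice 9 and 11. They were 242 and 254 CPM in HFD mice 1 and 3, both above both chow mice. These chow values rest on only a few UMIs, and the share of all genes set apart in this way after thinning was not counted. The share of positive cells was 13.3% and 17.9% on chow, and 23.4% and 30.5% on HFD. In the same cells, resident macrophage markers summed to 10296 and 16073 CPM on chow against 4488 and 4615 CPM on HFD, and monocyte markers to 13174 and 16100 against 22034 and 20446 CPM. B and plasma cell genes summed to between 19739 and 32129 CPM in the 4 mice, and epithelial genes to 2902 CPM in HFD mouse 3. The part of these markers in the Dnase1l3 values was not tested.

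C1q-high macrophages had the highest level of Dnase1l3 in every mouse. The cells of this class, too, differed by diet, with resident macrophage markers at 86059 and 84681 CPM on chow against 42719 and 34623 CPM on HFD, and monocyte markers at 423 and 566 against 2988 and 3529 CPM. The part of these marker differences in results within the class was not tested. They held 2438 and 2262 CPM in chow mice 9 and 11, and 2472 and 3817 CPM in HFD mice 1 and 3. The intervals of HFD mouse 1 (2397 to 2549 CPM) and chow mouse 9 (2386 to 2491 CPM) overlapped, and HFD mouse 3 stood apart from the other mice. The mean was 1.34-fold higher on HFD (3144 ± 951 against 2350 ± 124 CPM, SD, n = 2), both HFD mice were above both chow mice for 40.2% of the 5095 genes tested in this class, and Dnase1l3 ranked 1152 of them by fold. The log2 ratio of HFD over chow was 0.42, and 0.073 without HFD mouse 3. The shares of positive cells overlapped (71.4% and 73.2% on chow, 67.4% and 83.7% on HFD). C1q-high cells supplied 99.6% and 99.3% of all Dnase1l3 UMIs in the chow mice, but 74.7% and 75.4% in the HFD mice.

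The steps between the stages were of different height by diet. The ratio of C1q-high to Ly6C- MHC II-high cells was 18.1 and 6.43 on chow, and 1.56 and 2.07 on HFD. From Ly6C+ MHC II-low to Ly6C- MHC II-high cells it was 2.98 and 4.34 on chow, and 14.6 and 7.51 on HFD. In both chow mice the larger of these steps was the one to C1q-high cells. In both HFD mice it was the one to Ly6C- MHC II-high cells, which joins a gain of MHC II and a loss of Ly6C. The chow ratios rest on 15 and 39 UMIs in Ly6C- MHC II-high cells. The level in these cells depends on the class limit, with log2 of HFD over chow at 2.82, and at 1.75 with C1q-high from 10000 CPM.

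Along C1q alone, all cells of the 4 mice were ranked and divided into 5 bins of equal cell number. In bin 1, with at most 583.5 CPM of C1q, Dnase1l3 was 35.0 and 358 CPM in chow mice 9 and 11, and 461 and 837 CPM in HFD mice 1 and 3. In bin 2, it was 163 and 329 CPM on chow against 1242 and 1496 CPM on HFD. The HFD mice were higher in both bins, 3.30- and 5.57-fold on average, where 29.8% and 31.4% of the genes tested had both HFD mice above both chow mice. In bin 1 of chow mouse 11, 1 cell held 18 of the 29 UMIs. After thinning, bin 1 held 40.7 and 51.3 CPM on chow, in 82 and 26 cells, against 458 and 783 CPM on HFD. The mean was then 13.5-fold higher on HFD, but the chow levels rest on only a few UMIs, so this fold is not a firm estimate. Bins 3 to 5 held C1q-high cells only. In bin 3, Dnase1l3 was 2049 and 1797 CPM in the chow mice and 2224 and 3353 CPM in the HFD mice. In bin 4, it was 3006 and 2626 CPM in the chow mice and 2903 and 4879 CPM in the HFD mice. In bin 5, it was 2318 and 2244 CPM in the chow mice and 2948 and 4803 CPM in the HFD mice. The HFD mice were thus higher in bins 3 and 5 as well, 1.45- and 1.70-fold on average, where 37.7% and 24.1% of the genes tested had both HFD mice above both chow mice, and the diets overlapped in bin 4. After thinning, bin 4 held 2722 and 2296 CPM on chow against 2780 and 4291 CPM on HFD. Both HFD mice were then higher, HFD mouse 1 only slightly above chow mouse 9.

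**Figure D2:**
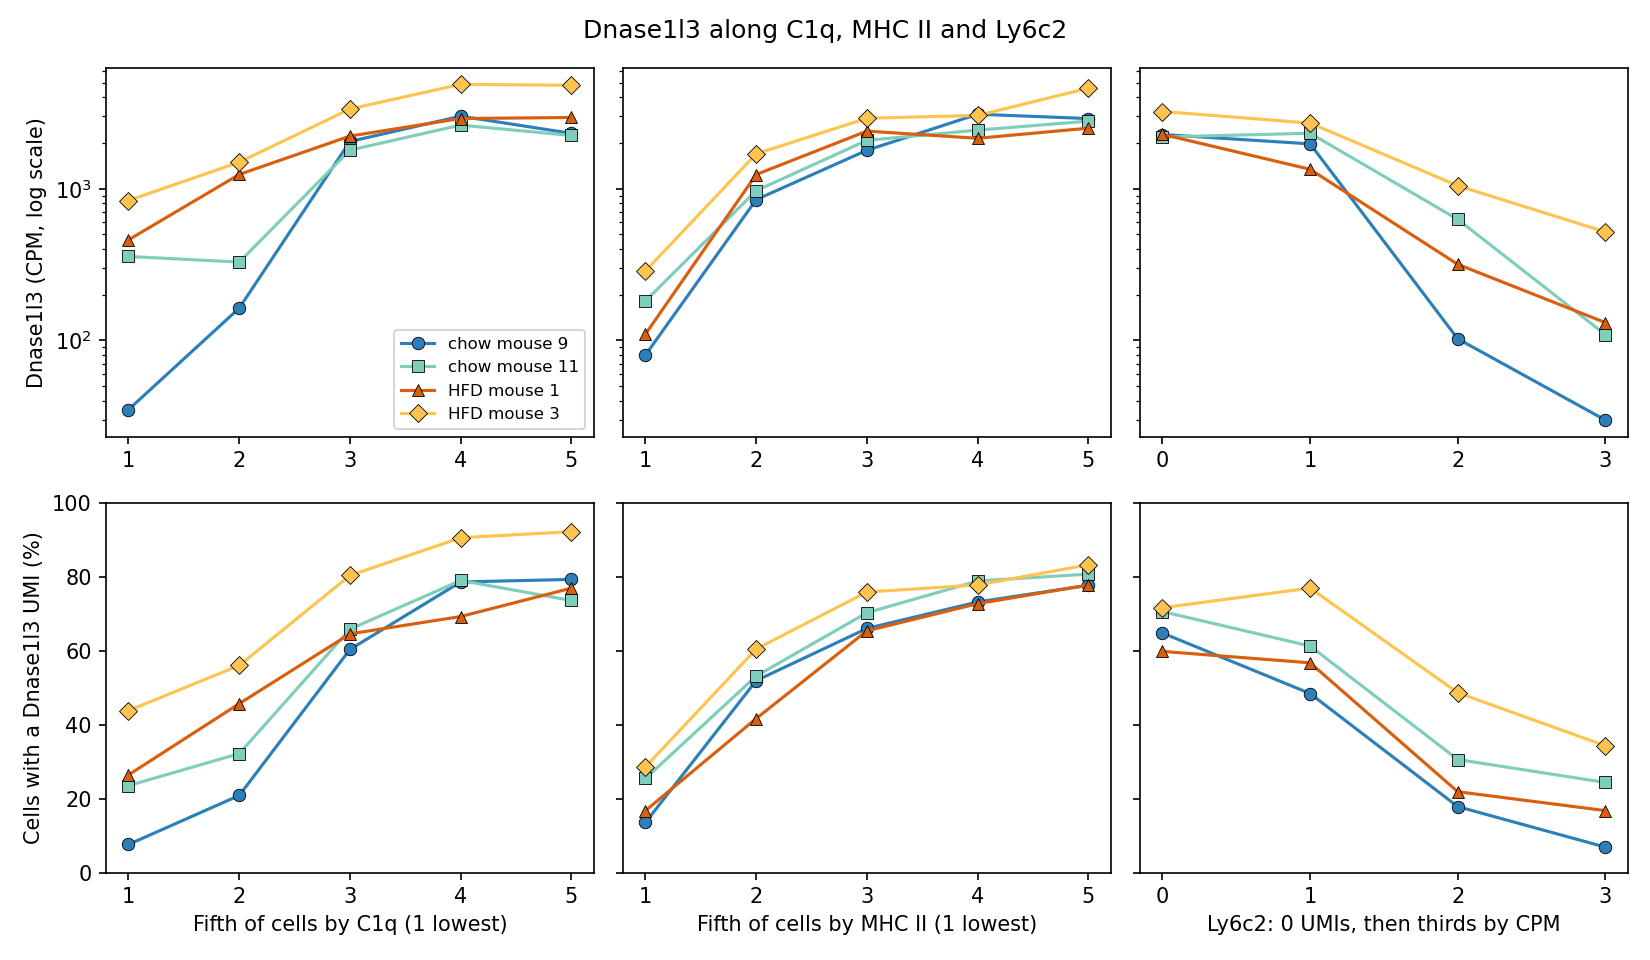
Dnase1l3 per mouse along 5 bins of all cells by C1q and by MHC II and along Ly6c2 (0 UMIs, then 3 bins of the cells with a UMI), as CPM on a log scale (top) and as the share of positive cells (bottom). The HFD mice are above the chow mice in C1q bins 1 and 2, at 461 to 1496 CPM against 35.0 to 358 CPM, and by less in bins 3 and 5.

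In MHC II bin 1 Dnase1l3 was 80.3 and 182 CPM on chow against 110 and 287 CPM on HFD, and the diets overlapped. In this bin of HFD mouse 3, 1 cell held 115 of the 335 UMIs. After thinning, the bin held 80.5 and 128.5 CPM on chow against 131 and 257.8 CPM on HFD. Both HFD mice were then above both chow mice, HFD mouse 1 only slightly above chow mouse 11. At full depth, Dnase1l3 was 848 and 971 CPM on chow against 1241 and 1699 CPM on HFD in bin 2. In bin 3 it was 1793 and 2083 against 2398 and 2915 CPM. The HFD mice were higher in both of these bins, as were 40.3% and 39.7% of the genes tested. In bins 4 and 5 the diets overlapped again, with 2434 to 3098 CPM on chow and 2150 to 4600 CPM on HFD. The share of positive cells rose in each mouse between bin 1, with 13.6% to 28.6%, and bin 5, with 77.8% to 83.3%.

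Along Ly6c2, Dnase1l3 was lowest in the cells with the most Ly6c2 in every mouse. Cells without a Ly6c2 UMI held 2277 and 2192 CPM of Dnase1l3 on chow and 2283 and 3228 CPM on HFD, where 44.4% of the genes tested had both HFD mice above both chow mice. The bin of cells with the most Ly6c2 held 29.9 and 109 CPM on chow against 131 and 519 CPM on HFD. HFD mice were above chow mice in this bin, as were 32.3% of the genes tested there, and the shares of positive cells overlapped (6.90% and 24.4% against 16.8% and 34.3%). The bin with the least Ly6c2 above 0 still held 1976 and 2322 CPM on chow against 1343 and 2708 CPM on HFD, with the diets overlapping. In chow mouse 11 this was above the level of cells without Ly6c2, and in HFD mouse 3 the share of positive cells was 77.0% against 71.7% there. These cells of HFD mouse 3 were deeper, with a median of 4434 UMIs against 3012 in its cells without Ly6c2. After thinning, their share was 60.1% against 69.3%, so that the order was reversed. The middle bin held 103 and 628 CPM in the chow mice and 318 and 1047 CPM in the HFD mice, and the diets overlapped. In this bin of chow mouse 11, 1 cell held 83 of the 107 UMIs. After thinning, the bin held 55.6 and 246 CPM on chow, in 24 and 46 cells, against 293 and 911 CPM on HFD. Both HFD mice were then above both chow mice, but the value of chow mouse 9 rests on only a few UMIs. How many of all genes did so was not counted for this bin.

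Dnase1l3 was spread very unevenly over cells of the same class. The richest 10% of C1q-high cells held 52.2%, 53.1%, 47.2% and 43.8% of their Dnase1l3 UMIs in chow mice 9 and 11 and HFD mice 1 and 3, and single cells reached 160 to 177 UMIs. Thinned to equal depth, the variance of its UMIs was 6.75 to 7.38 times their mean, which placed it 19 to 21 among 2793 to 3011 genes. Only 29 to 56 of these genes had a higher mean than Dnase1l3, and the ranks were not adjusted for the mean. The ratio was 1.96 to 3.38 for C1qa, which had a higher mean, and 7.84 to 9.87 for Cd74. Positive cells were also deeper, with a median of 4506 against 3457 UMIs in C1q-high cells of chow mouse 9 and 4492 against 3022 in HFD mouse 3.

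Cells with many Dnase1l3 UMIs set the diets apart among C1q-low cells. Of C1q-low MHC II-high cells, 47 of 212 (22.2%) and 99 of 513 (19.3%) in HFD mice 1 and 3 held 10 or more UMIs. On chow there were 0 of 42 cells in mouse 9, which allows a share of up to 7.14%, and 0 of 55 in mouse 11, which allows up to 5.45%, taking 3 cells as the limit (exact binomial upper limits 8.41% and 6.49%). The highest counts there were 4 and 7 UMIs, against 56 and 81 in the HFD mice. Median depth was 2658 and 2799 UMIs on chow, and 3956 and 3168 on HFD. In C1q-high cells, shares of such cells were 30.1% and 26.6% on chow, and 31.8% and 48.7% on HFD.

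**Figure D3:**
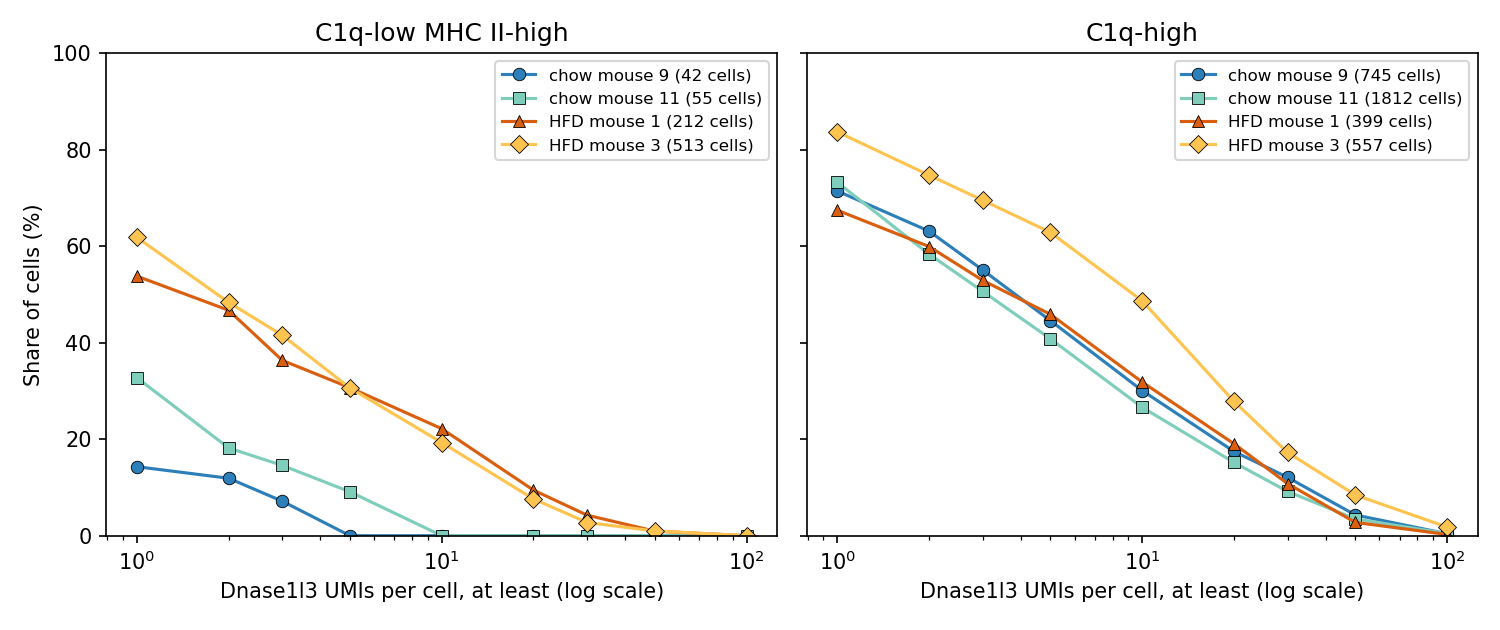
Share of cells that held at least a given number of Dnase1l3 UMIs (log scale), in C1q-low MHC II-high cells (left) and C1q-high cells (right), per mouse. Among C1q-low MHC II-high cells both chow lines reach 0 at 10 UMIs, while 22.2% and 19.3% of the HFD cells were at or above it.

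Within the classes, Dnase1l3 differed between cells told apart by 1 other gene. C1q-high cells with a UMI of Cd4, which marks long-lived macrophages of the gut, held 3125 and 3079 CPM on chow against 3640 and 4176 CPM on HFD, where 25 and 26 cells had one. Those without a Cd4 UMI held 2110 and 1954 CPM on chow against 2389 and 3797 CPM on HFD, less than the Cd4-positive cells of the same mouse in all 4 mice. Chow cells with a UMI of Lyve1 or Cd163, genes of perivascular and scavenging macrophages, held less Dnase1l3 (1238 and 1390 CPM) than chow cells with neither (2510 and 2351 CPM). Only 7 and 4 HFD cells had a UMI of Lyve1 or Cd163, so they were not compared.

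Among C1q-low MHC II-high cells of HFD mice, those with a UMI of AA467197, a gene induced in inflamed macrophages, held 2090 and 2326 CPM of Dnase1l3, and the others 837 and 1206 CPM. Cells with a UMI of Cd209a, a lectin gene of monocyte-derived dendritic cells, held 245 and 1064 CPM, against 1728 and 1651 CPM in cells without it. Dnase1l3 was thus higher in the AA467197-positive and lower in the Cd209a-positive cells than in the other cells of the same mouse, in both HFD mice. In all these splits a cell without a UMI may still have expressed the marker gene.

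Markers of dendritic cells, which also express Dnase1l3, were checked in the same cells. In HFD C1q-low MHC II-high cells, the conventional dendritic cell list summed to 861 and 629 CPM in Dnase1l3-positive cells and to 1044 and 860 CPM in negative cells of mice 1 and 3, with all 13 of its 13 genes in the matrix and none at 0 over all cells of a mouse. Its member Ccr7, the receptor that guides migrating dendritic cells, had a UMI in 27.2% and 15.1% of positive, and in 8.16% and 6.63% of negative cells. Xcr1, which with Clec9a defines type 1 dendritic cells, had a UMI in 2.63% and 2.21% of positive and in 1.02% and 1.02% of negative cells. Clec9a had one in 1.75% and 2.84% of positive and in 0% and 1.02% of negative cells. Flt3, a receptor of dendritic cell precursors, had one in 11.4% and 4.42% of positive and in 6.12% and 4.59% of negative cells. Zbtb46, a transcription factor of conventional dendritic cells, had one in 2.63% and 1.89% of positive and in 2.04% and 1.02% of negative cells. Cd209a, also on the list, was 144 against 647 CPM and 170 against 508 CPM, a larger difference than that of the whole list. Thus the lower sum in positive cells came with Cd209a, while Ccr7, Xcr1, Clec9a and Zbtb46 were each found in a larger share of positive cells, and positive cells were deeper (4358 against 3162 and 3372 against 2776 UMIs). The paper's sort was set to CD24- cells other than dendritic cells. Its annotation step then removed cells not placed among macrophages and monocytes. The part of dendritic cells in the Dnase1l3 level was not tested.

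To describe what accompanies Dnase1l3, genes were compared between cells with and without a Dnase1l3 UMI in each HFD mouse, and the 12 genes most raised and 6 most lowered in both were named. Of 4852 genes, 74 were higher and 72 were lower by more than 1 on the log2 scale of CPM + 5 in both HFD mice. Positive cells included most C1q-high cells, so this comparison also compares stages of differentiation. The raised genes, beside Igha and Jchain, were H2-M2 (a non-classical MHC class I gene), Apol7c (apolipoprotein L family), Mmp13 (a collagenase), Zmynd15, Cd63 (a tetraspanin of late endosomes), Tlr12 (an endosomal receptor for microbial profilin), Pgf (a growth factor of the VEGF family), Procr (the protein C receptor), Cd72 (an inhibitory lectin) and Npl (sialic acid breakdown). The lowered genes were I830127L07Rik, Vcan and Fn1 (matrix genes of monocytes), Ifitm6, Slpi (a protease inhibitor) and Cd177.

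In numbers, H2-M2 was 255 CPM in positive and 28.5 CPM in negative cells of HFD mouse 1, and 120 and 12.6 CPM in HFD mouse 3. Apol7c was 214 and 26.8 CPM in mouse 1, and 211 and 14.9 CPM in mouse 3. Mmp13 was 181 and 25.1 CPM in mouse 1, and 158 and 20.6 CPM in mouse 3. In each case cells with Dnase1l3 held several times more. Fn1 fell from 321 to 54.7 CPM and from 210 to 46.0 CPM. Igha and Jchain, genes of antibody-secreting cells, ranked highest, but 5 cells per HFD mouse held 91.0% to 96.0% of their UMIs, and after thinning both were lower in positive cells of both HFD mice. After thinning, 7 of the 12 raised genes (Apol7c, Cd63, Cd72, H2-M2, Mmp13, Procr and Zmynd15) were again among the 12 highest, and Tlr12, Pgf and Npl were too rare to enter.

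The same genes were then looked up in the chow mice, which had no part in choosing them. Of 12 raised genes, 11 could be tested with edgeR's quasi-likelihood test with a term for the mouse, and 9 were higher in Dnase1l3-positive chow cells at an adjusted p of 0.01 or less, where 4.71% of all 4973 genes were. All 3 lowered genes that could be tested were lower, against 4.08% of all genes. H2-M2 rose by 2.91 ± 0.12 (log2, SE, adjusted p = 2.34e-18 by edgeR), Apol7c by 2.72 ± 0.14, Pgf by 3.17 ± 0.23 and Tlr12 by 2.09 ± 0.23. Cd63 rose by 0.98 ± 0.12 (adjusted p = 1.56e-07 by edgeR) in chow cells, next to log2 ratios of 2.40 and 2.55 in the HFD mice, and this difference was not tested. Igha and Jchain did not pass (adjusted p = 0.017 and 0.0137 by edgeR), and had opposite signs in the chow mice. Without the term for the mouse, 5 of the named genes passed instead of 12, and 19 of all 4973 genes instead of 437. With 2 chow mice, the small p-values rest partly on a spread estimated across genes, and not on many mice.

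**Figure D4:**
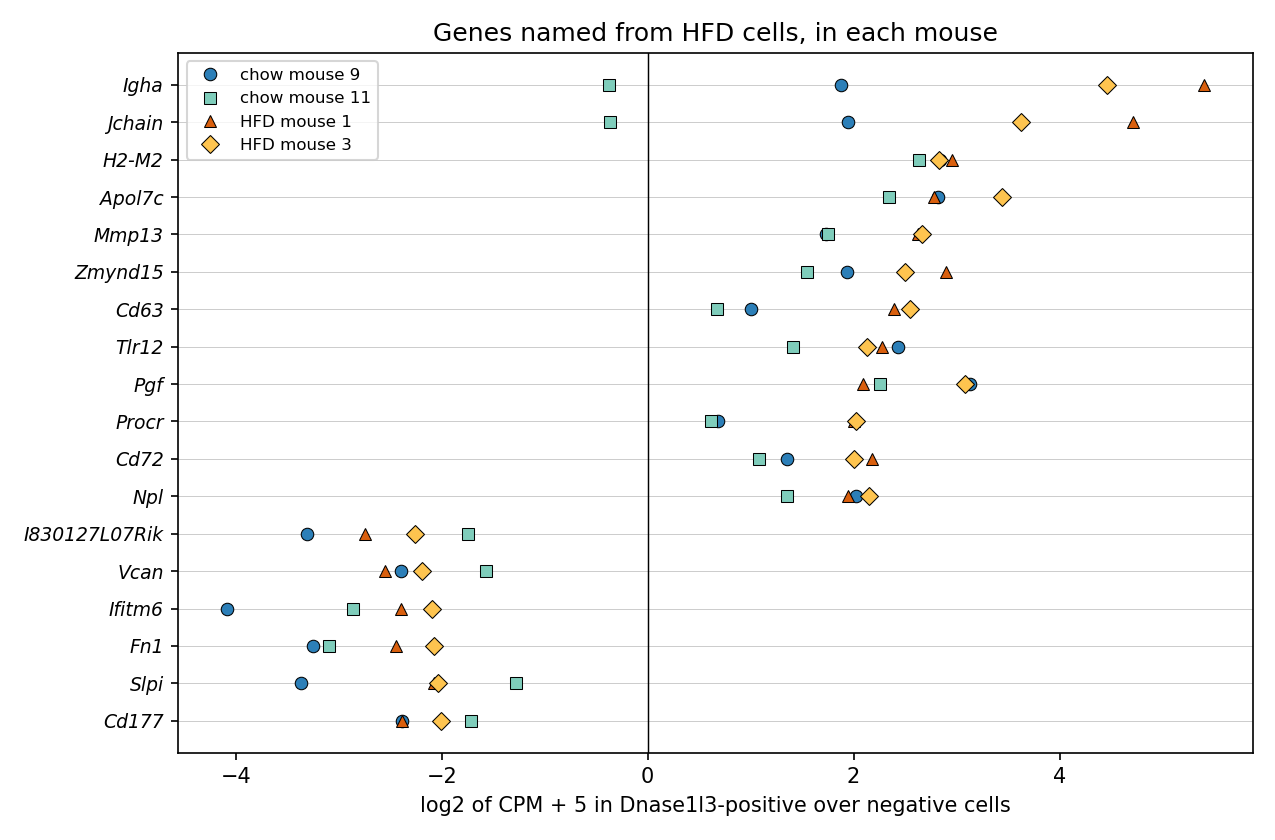
Log2 ratio of CPM + 5 between Dnase1l3-positive and negative cells for the 12 raised and 6 lowered genes named from all HFD cells, per mouse. In the chow mice, 10 of 12 raised and 6 of 6 lowered genes had the sign they had in the HFD mice, and Igha and Jchain differed in sign between the chow mice.

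Within the C1q-high class, a comparison added after other results had been seen, the companions overlapped with these. Of the 12 genes most raised in C1q-high HFD cells, 6 were among those of all HFD cells, namely Apol7c, H2-M2, Mmp13, Npl, Pgf and Zmynd15. Ccl17, a T cell-attracting chemokine, and Nr1h3, the liver X receptor, also stood there, with Nr1h3 at 83.3 against 24.5 CPM in mouse 1 and 84.6 against 6.88 CPM in mouse 3. The last value rests on 2 UMIs in 91 cells, and the log2 ratio of Nr1h3 in mouse 3 was 2.92 at full depth and 0.73 after thinning. In C1q-high chow cells, 7 of 10 raised genes that could be tested were higher (3.42% of all 5056 genes) and 3 of 4 lowered ones were lower (2.35%) with edgeR. H2-M2 rose by 2.51 ± 0.12, Pgf by 3.02 ± 0.23, Apol7c by 2.40 ± 0.13 and Npl by 1.44 ± 0.13 in chow cells with Dnase1l3. Nr1h3 did not pass there (0.35 ± 0.33, adjusted p = 0.646). Alox5ap and Ahnak, both abundant in monocytes, fell by 1.98 ± 0.11 and 1.53 ± 0.10. Without the term for the mouse, 1 of the named genes passed instead of 10, and 1 of all 5056 genes instead of 292.

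In C1q-low MHC II-high HFD cells the companions were Ccl17, Cd63, Serpinb9 (a granzyme B inhibitor), Itgax (CD11c), AA467197, Vcam1 (an adhesion molecule), Cwc27, Ift52, Apol7c, Procr, Mmp12 (macrophage elastase) and Gstt2, and 3 of them were also among the 12 of all HFD cells. Ccl17 was 77.6 CPM in positive and 17.9 CPM in negative cells of HFD mouse 1, and 158 and 12.3 CPM in HFD mouse 3. AA467197 was 1034 and 382 CPM in mouse 1, and 667 and 186 CPM in mouse 3. Cd209a was lower in cells with Dnase1l3 (144 against 647 CPM, and 170 against 508 CPM), as were Ahnak, Arfip1, Ifitm6, Ms4a8a and Ccl9. Chow mice had 6 and 18 positive cells in these classes, too few for a test. Positive cells were deeper, and after thinning 7 of these 12 genes were too rare to enter. Of the others, the log2 ratio in HFD mice 1 and 3 was 1.54 and 1.24 for Itgax, 0.82 and 1.74 for AA467197, 1.23 and 0.56 for Cd63, 0.32 and 1.42 for Procr and 0.96 and 0.34 for Ift52, so that only Itgax was above 1 in both.

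Across the 18 sums of 1 class in 1 mouse with at least 20 cells, the genes most like Dnase1l3 were Fth1 (ferritin heavy chain, Pearson's r = 0.94 on log2 of CPM + 5), Nrp2 (0.93, neuropilin 2), Gatm (0.89, creatine synthesis), Creb5, Cxcl16, Spint1, Clec4n, Gbp2b, Zfp667 and Arrb2 (0.87). Emp3 (-0.93), Fn1 (-0.92) and Rasgrp2 (-0.92) ran most opposite to it. These sums share mice and libraries and are not independent, so the values describe the 18 sums only. Fth1 was 16036 and 17338 CPM in Ly6C- MHC II-high chow cells, and 23521 and 22208 CPM in HFD cells, and 23635 to 25636 CPM in C1q-high cells. Since these genes were picked for their likeness over the same sums, such values only show what the correlation rests on.

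Other nucleases were measured beside Dnase1l3 in the same sums. Of 24 listed nucleases, 15 were in the matrix and 11 were tested in C1q-high cells, where Samhd1 rose and Rnase4 fell with HFD, while 4.99% of all 5095 genes rose, 4.67% fell and 9.66% changed in either direction at an adjusted p of 0.01 or less. Dnase1l1, a related DNase of muscle and myeloid cells, was 75.8 and 67.8 CPM in C1q-high chow cells and 59.4 and 41.8 CPM in HFD cells (adjusted p = 0.0544 by edgeR). Dnase2a, the acid DNase of lysosomes, was 93.0 and 67.1 CPM on chow against 71.6 and 78.0 CPM on HFD (adjusted p = 0.47 by edgeR). In Ly6C- MHC II-high cells, where Dnase1l3 differed most, Dnase1l1 was 44.8 and 117 against 51.8 and 28.7 CPM and Dnase2a 17.9 and 72.2 against 45.9 and 62.3 CPM, with the diets overlapping for both and with adjusted p of 0.311 and 0.902 by edgeR. Pld4, an exonuclease of endolysosomes, was 404 and 426 against 339 and 398 CPM in C1q-high cells (adjusted p = 0.143 by edgeR) and did not pass in any of the 4 classes.

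Samhd1, which breaks down deoxynucleotides, rose in each of the 4 classes tested. No listed gene passed in Ly6C- MHC II-low cells without a filter on low counts (10 at an unadjusted p under 0.05 by edgeR). None passed in Ly6C- MHC II-high cells with MHC II-high from 60000 CPM either (8 at an unadjusted p under 0.05 by edgeR). The calls of Samhd1 and Zbp1 were thus lost there, and also in Ly6C- MHC II-high cells without either HFD mouse. With C1q-high from 2500 CPM only 1 listed gene passed in that class, so at least 1 of these calls was lost. Not both held in Ly6C+ MHC II-low cells without HFD mouse 3, or in Ly6C- MHC II-high cells without chow mouse 9. In Ly6C- MHC II-high cells Samhd1 was 242 and 361 CPM on chow against 734 and 770 CPM on HFD (log2 fold change 1.23 ± 0.23, adjusted p = 0.00853 by edgeR), where 1.72% of all genes changed. In C1q-high cells it was 106 and 117 against 386 and 426 CPM (1.73 ± 0.14, adjusted p = 9.44e-05). Of the 4 classes tested, Samhd1 was highest in Ly6C+ MHC II-low cells in every mouse, where Dnase1l3 was low, with 909 and 693 CPM on chow against 1925 and 2209 CPM on HFD, where 0.890% of all genes changed. In Ly6C- MHC II-low cells, where 1.84% changed, it was 632 and 682 against 1673 and 1896 CPM. Rnase4, a secreted ribonuclease, fell in C1q-high cells from 124 and 110 to 41.9 and 23.1 CPM (-2.02 ± 0.26, adjusted p = 0.000924).

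Genes that sense nucleic acids rose where they changed. Of 31 listed genes, 30 were in the matrix, and 3 of 22 tested rose and none fell in C1q-high cells, where 4.99% of all genes rose and 4.67% fell. Zbp1, a sensor of Z-form nucleic acids, rose in all 4 classes, in C1q-high cells from 23.7 and 29.0 to 216 and 260 CPM (3.03 ± 0.18, adjusted p = 2.00e-05 by edgeR). Ifi205, a DNA-binding interferon-inducible gene, rose in C1q-high cells from 2.37 and 3.91 to 86.1 and 81.2 CPM and in Ly6C- MHC II-high cells from 8.97 and 36.1 to 158 and 160 CPM (adjusted p = 0.00843). Irf7, which drives interferon genes, passed in C1q-high cells (2.67 ± 0.21). The median log2 fold change of the list was 0.036 in C1q-high cells, next to -0.025 over all genes, and 0.25 next to 0.027 in Ly6C- MHC II-high cells. The receptor Tlr9 had under 3 CPM in each mouse in both of these classes and was not tested.

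**Figure D5:**
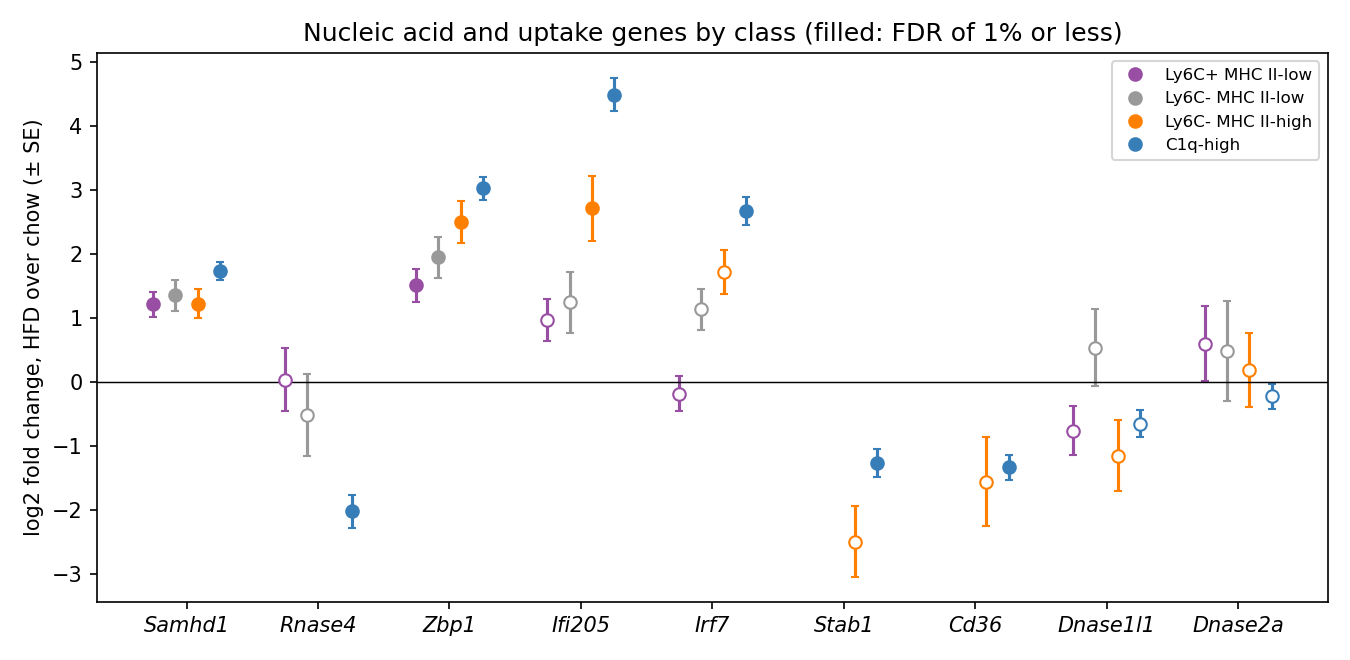
Log2 fold change of HFD over chow (edgeR, ± SE) of listed genes that passed in at least 1 class, with Dnase1l1 and Dnase2a beside them, in the classes where each was tested. Filled points mark an adjusted p of 0.01 or less. Samhd1 and Zbp1 are filled in 4 of 4 classes, and neither DNase is filled in any.

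Genes for the uptake of dying cells, whose DNA DNASE1L3 digests, were lower where they changed. Of 19 listed genes, 15 were in the matrix and 12 were tested in C1q-high cells, where Stab1 and Cd36 fell and none rose, next to 4.67% and 4.99% of all genes. In the same class, resident macrophage markers differed by diet as given above, and cells with a UMI of Lyve1 or Cd163 numbered 41 and 175 on chow, and 7 and 4 on HFD, and their part in this result was not tested. Stab1, a scavenger receptor for phosphatidylserine, fell from 103 and 118 to 62.5 and 40.6 CPM (-1.26 ± 0.22, adjusted p = 0.00408 by edgeR). Cd36, which binds oxidised lipid, fell from 119 and 88.9 to 43.1 and 47.1 CPM (-1.33 ± 0.20, adjusted p = 0.00207). The median of the list was -0.52 in C1q-high cells, against -0.025 over all genes. In the C1q-low classes none of 7 to 9 tested genes passed, with 1 to 4 at an unadjusted p under 0.05. Of all genes, 0.890% changed in Ly6C+ MHC II-low, 1.84% in Ly6C- MHC II-low and 1.72% in Ly6C- MHC II-high cells. With shares this low, the lack of calls among so few genes says little about them.

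Over all cells of each mouse, 15 of 46 tested genes of the 3 lists passed, where 16.2% of all genes did. Without HFD mouse 1 or HFD mouse 3 fewer passed, both in the lists and over all genes. In Ly6C- MHC II-high cells the calls depended on single mice, and without chow mouse 9, 1 listed gene passed instead of 3. Without HFD mouse 1 or without HFD mouse 3, none of the 4793 genes tested passed there with edgeR (302 and 257 had an unadjusted p under 0.05), and therefore none of Samhd1, Zbp1 and Ifi205.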

How the data were processed

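Sorted colon monocytes and macrophages of 4 mice were profiled with 10x Genomics v2 3′ chemistry, 1 well per mouse. The deposited values are UMI counts per gene and cell, not normalized. As the study's methods state, the authors made them by pseudo-alignment against the mouse transcriptome (kallisto 0.46.0, then bustools 0.39.2), filters on cells and on genes, and removal of cells that a reference annotation did not place among monocytes and macrophages. The submitters' processing notes name the mm10 build. Each cell's mouse was read from its name. The GENCODE M21 annotation matched 11819 of 11820 genes. Listed genes outside the matrix are not analysed here.

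CPM were computed from these counts. For tests, UMIs were summed per mouse and class (20 cells or more in each mouse) and fitted with edgeR 4.0.16 (TMM, quasi-likelihood, FDR of 1%) over genes above 1 CPM in at least 2 sums and with a UMI in at least 5% of cells. Positive and negative chow cells were compared with the mouse as a block, since both sums come from the same mouse. The SE given with edgeR results is the size of the log2 fold change divided by the square root of the F statistic. Nothing was tested on Dnase1l3 itself. Companion genes were ranked by log2 ratio of CPM + 5 in the less changed HFD mouse, and the 12 highest and 6 lowest are named. Listed genes are named where they passed in a class, together with the other DNase genes. Pld4, which did not pass, and Tlr9, which was not tested, are named as well. Alternatives were DESeq2 1.42.0, the likelihood-ratio test, no filter, other class limits, removal of doublets (Scrublet in scanpy 1.11.5), thinning to 1500 UMIs and leaving out each mouse. The code was tested on simulated data. The gene, lists, class limits and subsets were chosen with earlier results of these data known. The comparison of companion genes within C1q-high cells and the count of cells with 10 or more UMIs were added after seeing the data. Where a fit leaves 1 mouse in a diet, that mouse is assumed to vary like the others.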

Additional observations from a re-analysis of the deposited data

How the results depend on the processing

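No paired analysis was possible because the replicate numbers of the diets differ (9 and 11 against 1 and 3). Without the replicate block, 5 instead of 12 named genes passed in all chow cells and 1 instead of 10 in C1q-high chow cells. Dnase1l3, share of positive cells: the HFD minus chow difference of -11.6 points was -3.26 points for cells with 10 or more UMIs, and -18.6 to -4.65 without each mouse in turn. The CPM difference of -313 ranged from -715 to 89.6, so its sign rests on HFD mouse 1. Log2 of HFD over chow in Ly6C+ MHC II-low cells was 1.49, 0.74 with MHC II-high from 15000 CPM, and 0.78 to 1.97 without each mouse. In Ly6C- MHC II-low cells it was 0.072, 1.84 with MHC II-high from 60000 CPM, and -0.72 to 1.98 without each mouse, with the highest value without chow mouse 11. In Ly6C- MHC II-high cells it was 2.82, 1.75 with C1q-high from 10000 CPM, and 2.29 to 3.67 without each mouse. In C1q-high cells it was 0.42, and 0.073 (without HFD mouse 3) to 0.70 without each mouse. Of the 12 genes raised in all HFD cells, 7 were shared after thinning, 3 with C1q-low MHC II-high and 6 with C1q-high cells.

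Listed genes called by diet numbered 15 in all cells (24 with the likelihood-ratio test, 5 to 18 without each mouse), 2 in Ly6C+ MHC II-low cells (1 to 4), 2 in Ly6C- MHC II-low cells (0 of 58 without a filter, with 10 at an unadjusted p under 0.05, and 2 to 3 without each mouse) and 7 in C1q-high cells (12 with the likelihood-ratio test, 5 to 10 without each mouse). In Ly6C- MHC II-high cells the 3 became 6 with the likelihood-ratio test, 5 without a filter, 1 and 8 with C1q-high from 2500 and 10000 CPM, 5 and 0 with MHC II-high from 15000 and 60000 CPM, and 0 to 5 without each mouse. Over all genes, 803 calls in all cells became 1306 with the likelihood-ratio test, 1218 without a filter and 150 without HFD mouse 3, and 492 in C1q-high cells became 830 and, without HFD mouse 3, 136. The 40, 76 and 83 calls of the Ly6C+ MHC II-low, Ly6C- MHC II-low and Ly6C- MHC II-high classes became 125, 0 and 249 without a filter (607 of the second at an unadjusted p under 0.05). The first were 97 and the last 243 with the likelihood-ratio test, and the second 20 with DESeq2 and 45 with MHC II-high from 15000 CPM. The last were 32 and 304 with C1q-high from 2500 and 10000 CPM, 50 with MHC II-high from 60000 CPM, and 0 to 228 without each mouse, against 41 to 113 for the first and 21 to 67 for the second. The cause was not tested. Of the alternatives, 116 stayed within the spread between mice of a diet, for values, or within 1.5 times the main count, for counts. The sign was not part of this rule, and the CPM difference without HFD mouse 1 changed sign within that spread. Another 10 moved beyond the spread or shared too few of the named genes. Of the counts, 19 became larger and 25 smaller by over 1.5 times. Chow classes of 40 to 68 cells limit every comparison of C1q-low cells.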
